A study of Gasterosteus aculeatus with 34 samples.

Results

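In males of the threespine stickleback, Gasterosteus aculeatus, the 180 genes described here were abundant in the diencephalon, lower in the telencephalon by at least 2 on a log2 scale, and limited in their spread from male to male. They were chosen from measured values among 20747 eligible identifiers of the 22295 gene models in the files, namely Ensembl identifiers (starting with ENSGACG) not marked as alternative or Y copies, so that other predicted gene models were left out. Levels are in CPM, a gene's count as a share of all gene counts of its library on the usual scale of that unit, and L is log2(CPM + 0.1). A gene was taken when its mean L over the 17 diencephalon libraries exceeded its mean L over the 17 telencephalon libraries by at least 2, when its diencephalon mean was at least 10 CPM, and when the standard deviation of L over the diencephalon libraries was under 1. The difference of at least 2 was met by 483 genes, 190 of these also reached 10 CPM, and 10 of the 190 were left out by their spread. The region difference and the diencephalon spread are therefore a description of how the genes were picked, and no test of either is given.

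The study compared brain gene expression in 17 laboratory-reared males of the white ecotype, whose parents were wild-caught. Each male met every treatment in 8 trials in all, in random order, and the last of them set its group: a courtship opportunity with a gravid female in a flask (F, 4 males), a territorial challenge from a rival male in a flask (M, 5 males), a tradeoff with female and rival together (MF, 4 males), or a control with empty flasks (C, 4 males). Diencephalon and telencephalon were dissected 60 minutes after that trial and each gave 1 library of polyadenylated RNA, so that all groups share the earlier exposures to all treatments. The labels do not give ages, and they name males by number.

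The diencephalon lies behind the telencephalon and holds the thalamus, the habenula, the pretectum and the hypothalamus. In fish, the hypothalamus releases neuropeptides and directs the pituitary, feeding, stress responses and reproduction, and the habenula relays forebrain signals to midbrain and hindbrain. The telencephalon holds the pallium and subpallium, which take part in learning and in the evaluation of social stimuli. The deposited gene identifiers carry no symbols, and 0 of the 180 matched the annotation table at hand, so the genes are given by identifier, without a role. For the same reason neither dissection could be checked against defining marker genes. Gene lengths were not used, so a CPM is compared here mainly between libraries for the same gene. Where genes are ranked or chosen by CPM, this is by their share of reads, not corrected for gene length.

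The libraries held 16522465 to 34384860 gene counts in the diencephalon and 22802875 to 36656215 in the telencephalon. Reads that the authors' counting left out as not unique came to 3.72% to 4.73% of all reads in the diencephalon and to 11.3% to 21.9% in the telencephalon. The 180 genes took 206503 to 391768 counts of a diencephalon library and 25989 to 188268 of a telencephalon library.

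A pair of telencephalon libraries stood apart before any treatment was considered. The summed level of the 180 genes was 12270.5 ± 799 CPM in the diencephalon (SD, n = 17), with a range of 10488 to 13619 CPM. In the telencephalon it ran from 1056 to 6667 CPM, with a median of 1499 CPM. The telencephalon of control male 304 held the 6667 CPM and that of challenge male 322 held 4351 CPM. Males 298 and 299 followed at 3002 and 2480 CPM, and the other 13 telencephalon libraries lay at or below 2103 CPM. The diencephalon library of male 304 had the lowest sum of its region, 10488 CPM. Results that rest on males 304 and 322 are given below with and without them where both were computed. Leaving them out was a setting that was chosen after seeing the data.

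**Figure D1:**
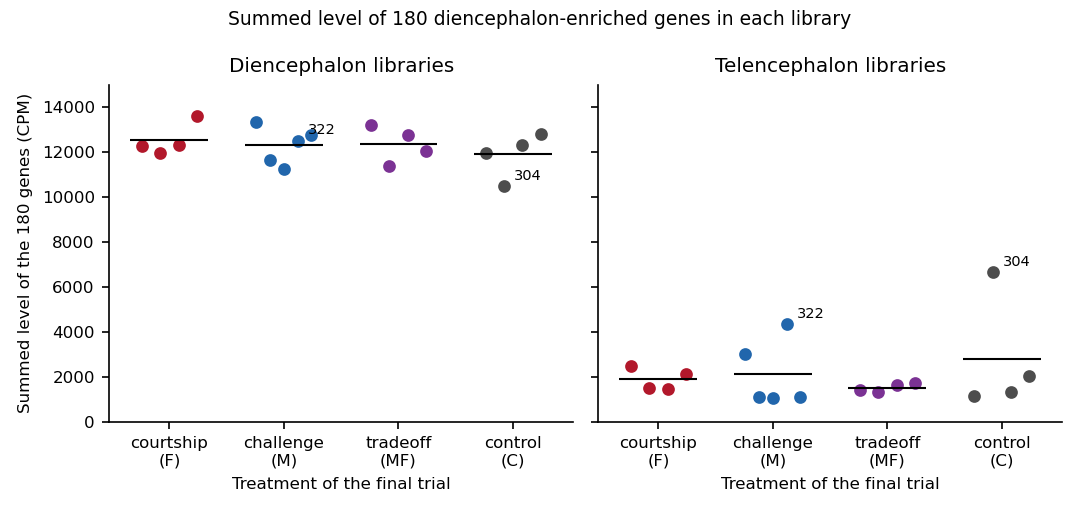
Summed level of the 180 genes in CPM (vertical axis, linear from 0) for each diencephalon library (left) and telencephalon library (right), by treatment of the final trial. Points are libraries and horizontal bars are group means. The diencephalon sums run from 10488 to 13619 CPM, and the telencephalon libraries of male 304 (6667 CPM) and male 322 (4351 CPM) lie above the other 15.

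The same libraries stood out gene by gene. Expressed as a percentage of each gene's diencephalon mean, the median over the 180 genes was 53.8% in the telencephalon of male 304 and 35.8% in that of male 322. It was 17.2% in male 298 and between 7.99% and 14.9% in the other 14. Within male 304 the median diencephalon minus telencephalon difference of L was 0.63, with 177 genes higher in the diencephalon. Within male 322 it was 1.42, with 171 genes higher. In each of the other 15 males 179 or 180 genes were higher in the diencephalon, by a median of 2.51 to 3.56. Of the 180 genes, 140 had their highest telencephalon value in male 304 and 29 in male 322.

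In comparable gene sets male 304 stood apart in both regions. The 259 genes that met the same difference at a diencephalon mean of 1 to 10 CPM had a median of 46.4% of the diencephalon mean in its telencephalon and 22.1% in that of male 322. Male 298 followed at 16.2%, and the remaining telencephalon libraries lay at 5.57% (male 307) to 13.6% (male 308). The 84 genes that met the mirrored rule, abundant and steady in the telencephalon and low in the diencephalon, had a median of 31.3% of their telencephalon mean in the diencephalon of male 304, against 13.7% to 18.8% in the other 16 diencephalon libraries. In the telencephalon of male 304 those 84 genes stood at a median of 54.7% of their mean, and in that of male 322 at 77.9%. The remaining telencephalon libraries ran from 81.7% (male 298) to 116% (male 302), so male 322 lay close to male 298 in this set. What part tissue of the other region, a different dissection or a different RNA content has in these libraries was not tested.

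The difference of mean L ran from 2.01 to 8.38 over the 180 genes, with quartiles of 2.32, 2.73 and 4.49. It was at least 5 in 32 genes, from 3 up to 5 in 46 and under 3 in 102. The diencephalon means ran from 10.05 to 1741 CPM (median 26.7) and the telencephalon means from 0.213 to 351 CPM (median 4.42). All 17 diencephalon libraries were above all 17 telencephalon libraries in 143 genes, against 9.69% of the 20747 eligible genes. Without male 304 it was 167 genes, against 11.7%, and without males 304 and 322 it was 178 genes, against 13.4%. Because the rule chose the genes by this contrast, nothing is read from these counts. In bulk tissue, fewer cells of a type and less RNA per cell cannot be told apart, and this holds for every level given here.

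At the threshold on the difference, ENSGACG00000014314 was just inside at 2.01 and ENSGACG00000020519 just outside at 1.998. At the abundance threshold, ENSGACG00000017338 was inside at 10.05 CPM and ENSGACG00000005256 outside at 9.99 CPM. At the spread threshold, ENSGACG00000008195 was inside with an SD of L of 0.98 and ENSGACG00000006711 outside at 1.21. The pairs at the thresholds on difference and abundance were thus close in the value that each threshold used.

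The 5 genes with the most reads took 30.4% of the summed CPM of the 180 in the diencephalon. ENSGACG00000017217 had a lowest, median and highest value of 1323, 1732 and 2067 CPM over the 17 diencephalon libraries, against 110.2, 239 and 927 CPM over the 17 telencephalon libraries. Its groups of libraries did not overlap, and the 3 highest telencephalon values were those of males 304 (927 CPM), 322 (743 CPM) and 298 (702 CPM). ENSGACG00000017682 had 511, 819.6 and 1054 CPM in the diencephalon, against 44.7, 131 and 378 CPM in the telencephalon. ENSGACG00000000230 had 346, 485 and 588 CPM in the diencephalon, against 35.5, 95.2 and 260.5 CPM in the telencephalon. In both genes no telencephalon library reached the lowest diencephalon library, and male 304 was the highest in the telencephalon.

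ENSGACG00000017695 had 304, 378 and 474 CPM in the diencephalon, against 22.2, 33.5 and 276 CPM in the telencephalon. The telencephalon of male 304 held the 276 CPM, that of male 322 held 121 CPM and the remaining 15 at most 56.5 CPM. ENSGACG00000018030, the fifth of these genes, had 174, 334 and 546 CPM in the diencephalon, against 0.546, 1.001 and 159 CPM in the telencephalon. The 159 CPM were again those of male 304, but here male 322 had 0.775 CPM, below the telencephalon median. Without male 304 the highest telencephalon value was 4.43 CPM (male 308).

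The genes with the largest differences after the rule were ENSGACG00000018017 (8.38), ENSGACG00000020044 (8.12) and ENSGACG00000018030 (7.62, on the log2 scale of mean L). ENSGACG00000018017 had 109, 193 and 315 CPM in the diencephalon, against 0, 0.157 and 81.9 CPM in the telencephalon. ENSGACG00000020044 had 64.1, 137 and 316 CPM in the diencephalon, against 0, 0.0363 and 56.2 CPM in the telencephalon. Both were highest in the diencephalon of male 322, at 315 and 316 CPM, and nearly absent from its telencephalon, at 0.286 and 1.102 CPM.

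Both genes had their 4 highest telencephalon values in the same libraries, a grouping made after the values were seen. ENSGACG00000018017 stood at 81.9 CPM in control male 304, 18.1 CPM in courtship male 299, 13.2 CPM in challenge male 298 and 4.64 CPM in tradeoff male 323, and at no more than 0.921 CPM in the other 13 telencephalon libraries. ENSGACG00000020044 stood at 56.2, 26.5, 10.5 and 1.90 CPM in the same 4 libraries and at no more than 1.102 CPM in the other 13. The 4 libraries belong to different treatments.

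The steadiest genes varied little over the 17 diencephalon libraries. ENSGACG00000015883 had an SD of L of 0.0754, with 62.3 to 74.7 CPM around a median of 68.8 CPM, against 4.21 to 53.5 CPM around a median of 9.46 CPM in the telencephalon. Male 304 (53.5 CPM) and male 322 (44.8 CPM) were the highest there, followed by males 298 and 299 at 21.7 and 21.5 CPM. ENSGACG00000011929 had an SD of 0.120, with 22.5 to 31.7 CPM in the diencephalon, against 3.34 to 7.01 CPM in the telencephalon. In this gene the telencephalon libraries of males 304 and 322, at 7.01 and 6.81 CPM, lay barely above the next, at 6.32 CPM. ENSGACG00000006867 had an SD of 0.121 and is described with the treatments.

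The spread from male to male was larger in the telencephalon. The SD of L had a median of 0.232 over the 180 genes in the diencephalon, which the rule limited, and of 0.892 in the telencephalon, which the rule did not use. Over the 11841 eligible genes with at least 10 CPM in the diencephalon the medians were 0.145 and 0.163 in the same regions, so the median spread of the 180 genes in the diencephalon was above that of genes of such abundance, and they were steady only in the sense of the rule. The SD was larger in the telencephalon than in the diencephalon for 179 of the 180 genes, against 67.0% of the 11841. Without males 304 and 322 it was larger for 171 of 180, against 62.9%, and the median telencephalon SD was 0.570. The rule limited the SD in the diencephalon only, where it left out 10 of 190 genes, and it took genes that were lower in the telencephalon. What part this choice and the lower telencephalon counts have in the larger SD there was not tested. An SD over 1 in the telencephalon was found in all 32 genes of the largest difference, in 35 of the 46 middle genes and in 5 of the 102 with a difference under 3, or 72 genes in all. It was found in 29 genes when males 304 and 322 were left out.

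The telencephalon libraries of males 304 and 322 did not hold the same genes. In male 304, 164 of the 180 genes lay between 30% and 80% of their diencephalon mean, and the lowest lay at 19.3%. In male 322, 20 genes were under 2%, 33 from 2% up to 20%, 80 from 20% up to 50% and 47 at 50% or more. Of the 180 genes 32 were higher in the telencephalon of male 322 than in that of male 304.

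The contrast was plainest among the 32 genes with a difference of at least 5, which were near absent from most telencephalon libraries. In the telencephalon of male 304 all 32 stood at 23.4% to 66.9% of their diencephalon mean. In that of male 322, 12 stood at 24.6% to 93.3% (median 45.1%), 19 stood under 10% (median 0.243%, highest 7.27%), and ENSGACG00000009256 lay between at 12.6%. The bounds of 20% and 10% were set after these values were seen, so the split is a description.

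Among the 12 genes, ENSGACG00000012890, chosen after its values were seen as the highest in male 322, had 13.8 CPM in the telencephalon of male 322 and 7.33 CPM in that of male 304, with no other value in the region over 0.239 CPM. ENSGACG00000006252, chosen likewise as the most abundant of the 12, had 104 CPM in the telencephalon of male 322 and 114 CPM in that of male 304, with the next highest value, 13.0 CPM, in male 298. ENSGACG00000018030 and ENSGACG00000013566 belong to the 19. ENSGACG00000013566 had 0.408 CPM in the telencephalon of male 322 and 81.6 CPM in that of male 304, and at most 2.51 CPM elsewhere in the region.

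**Figure D2:**
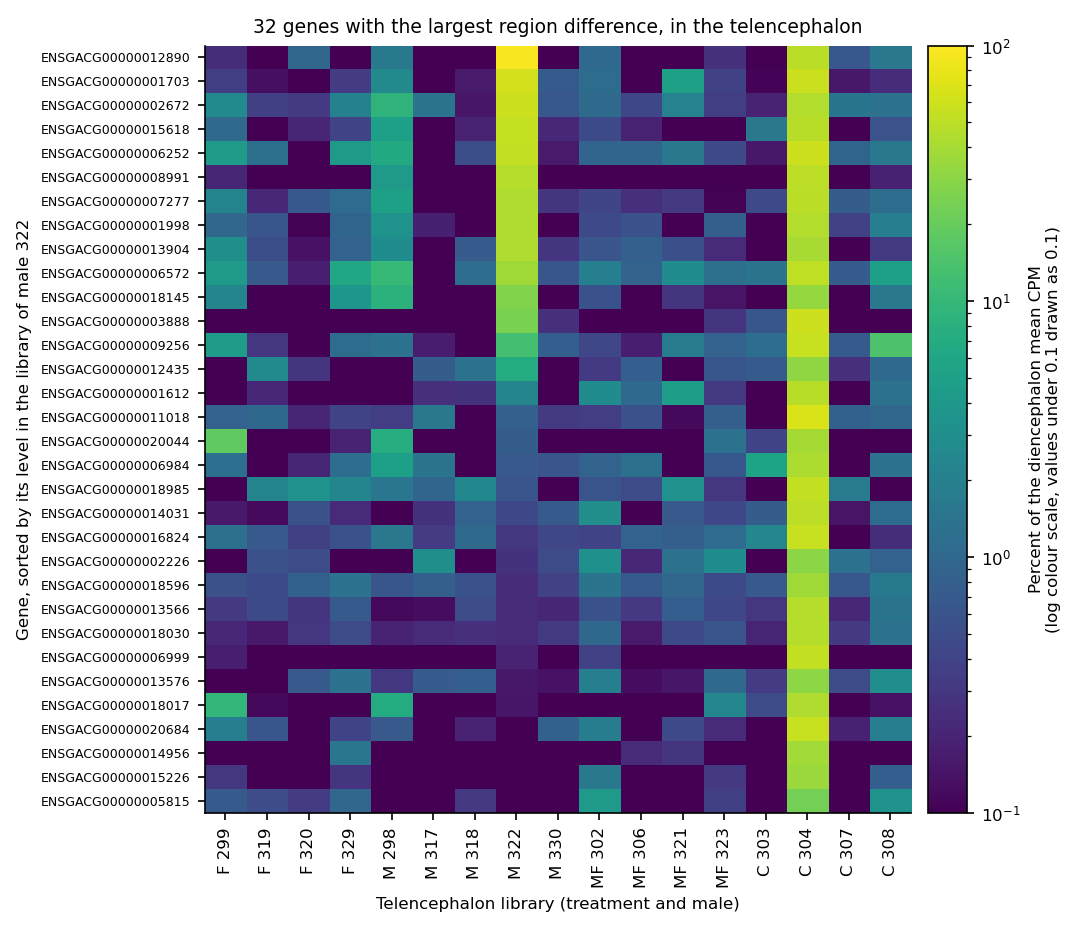
Level of the 32 genes with a region difference of at least 5 (rows) in each of the 17 telencephalon libraries (columns, by treatment and male), as a percentage of the gene's diencephalon mean on a logarithmic colour scale, with values under 0.1% drawn as 0.1%. All 32 rows are bright in male 304 (23.4% to 66.9%), whereas in male 322 12 rows are at 24.6% to 93.3% and 19 are under 10%.

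The other telencephalon libraries held fewer of these 32 genes. In male 298, 7 of them reached 5% of the diencephalon mean, in males 299 and 308 it was 2 each, and in males 303, 321 and 329 it was 1 each. In male 298 the 12 genes that were high in male 322 stood at a median of 4.53% and the 19 that were low there at 0.200%. In male 299 these medians were 1.67% and 0.297%, and in male 329 they were 0.90% and 0.41%. In male 308 they were 1.24% and 1.07%, close to each other. In males 302, 303, 317, 318, 319, 320 and 323 the 12 genes had the lower median, for example 0.122% against 0.287% in male 320. In males 306, 307, 321 and 330 they had the higher one, for example 0.269% against 0.142% in male 307. The order of male 322 thus did not recur in every male.

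Within male 322 the genes high in the telencephalon were low in the diencephalon. Relative to the mean of the other 16 diencephalon libraries, the 12 genes stood at 57.1% to 85.4% in its diencephalon (median 67.1%), and 10 of the 12 had their lowest diencephalon value there. The 19 genes stood at 85.9% to 239% (median 129%), with 3 below 100% and 0 at their lowest. ENSGACG00000006252 had 132 CPM in the diencephalon of male 322, against 169 to 231 CPM in the other 16, and ENSGACG00000012890 had 9.08 CPM, against 11.9 to 18.6 CPM.

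The same held over all 180 genes. The 127 genes at 20% or more in the telencephalon of male 322 had a median of 86.3% in its diencephalon, with 98 below 100% and 45 at their lowest diencephalon value. The 35 genes under 10% had a median of 127%, with 7 below 100%, and 1 of the 35 was at its lowest there. Across the 180 genes, Pearson's r between the telencephalon percentage and the diencephalon percentage of male 322 was -0.50 (Spearman's rho -0.58), a description across genes of 1 animal, which are not independent. In male 304 the corresponding r was 0.42 (rho 0.32), and the diencephalon medians of the same gene classes were 86.3% and 72.4%. Both percentages are divided by nearly the same diencephalon mean of the gene, which by itself can raise r. In male 304 ENSGACG00000010184, at 98.2% and 183%, also lay far from the other genes, and r without it was not computed. Both males thus had most of these genes raised in the telencephalon, while r and the order of the diencephalon class medians were opposite between them.

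**Figure D3:**
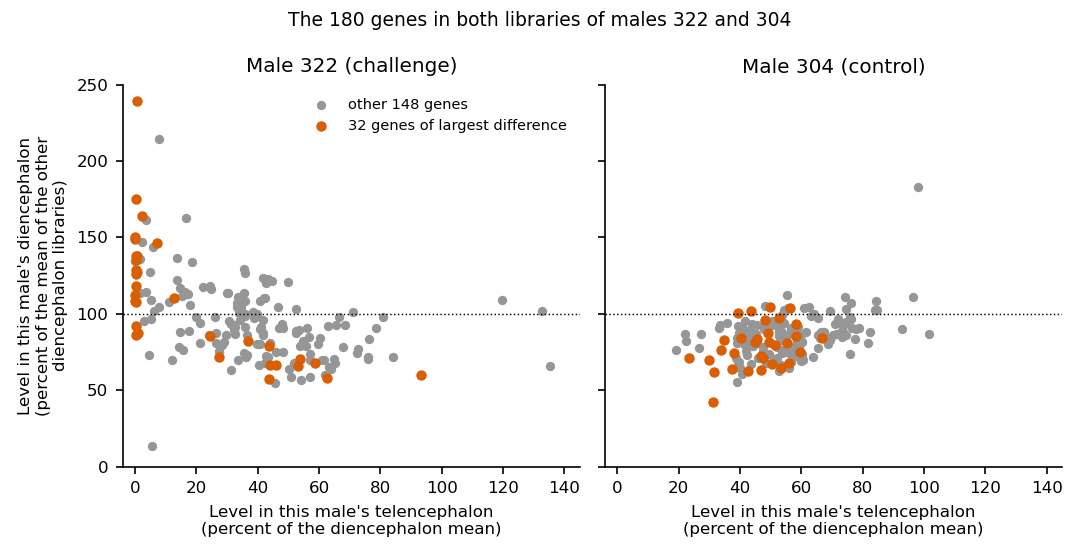
For each of the 180 genes, the level in the telencephalon of male 322 (left) or male 304 (right) as a percentage of the gene's mean over the 17 diencephalon libraries (horizontal axis), against the level in the same male's diencephalon as a percentage of the mean of the other 16 (vertical axis). The 32 genes of the largest difference are in orange. In male 322 the genes near 0% on the horizontal axis lie mostly above 100% on the vertical axis (median 127% for the 35 genes under 10%) and the rest mostly below it, whereas in male 304 161 of the 180 genes lie below 100%.

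In the telencephalon of male 322, 3 genes exceeded their diencephalon mean, and they are named after their values were seen. ENSGACG00000003228 had 26.2 CPM there, against a diencephalon range of 13.0 to 23.3 CPM and at most 2.26 CPM in the telencephalon outside males 304 and 322. ENSGACG00000012019 had 15.4 CPM, against a diencephalon range of 8.37 to 15.9 CPM. ENSGACG00000018215 had 18.8 CPM, against a diencephalon range of 8.93 to 27.9 CPM. In the telencephalon of male 304 these genes had 14.7, 6.98 and 6.16 CPM in the same order.

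A group of genes varied together in the diencephalon, and most of them were low in the telencephalon of male 322, as in most telencephalon libraries. With the treatment means subtracted, the L of 15 other genes among the 180 correlated with that of ENSGACG00000018030 at Pearson's r of 0.813 to 0.978 over the 17 diencephalon libraries (median 0.903, Spearman's rho 0.777 to 0.968). ENSGACG00000018030 was taken as the anchor after its values were seen, the bound of 0.8 likewise, and no p is given. Counting the anchor, the 16 genes are 8.89% of the 180, whereas 0.338% of the 11841 eligible genes with at least 10 CPM in the diencephalon reached 0.8 with the same anchor. These were 40 genes, so most of them lie outside the 180. The 180 genes also varied more in the diencephalon (median SD of L 0.232, against 0.145), and the part of this in the higher share was not tested. Libraries share a total, and genes correlated with it are not independent of each other. Without males 304 and 322, r was 0.795 to 0.983 and 14 of the 15 stayed at 0.8 or above. Without the 2 libraries in which the anchor lay farthest from its median, r was 0.793 to 0.974.

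The genes most like ENSGACG00000018030 were ENSGACG00000009097 (r = 0.978), ENSGACG00000005815 (0.970), ENSGACG00000013566 (0.961) and ENSGACG00000018596 (0.956). All were low or near 0 in most telencephalon libraries. Over the 17 diencephalon libraries ENSGACG00000009097 ran from 31.2 to 96.1 CPM, ENSGACG00000005815 from 6.11 to 17.6 CPM, ENSGACG00000013566 from 85.9 to 300.2 CPM and ENSGACG00000018596 from 105 to 322 CPM. The ratio of highest to lowest diencephalon value was 2.26 to 3.82 in the 15 companions, within the spread that the rule allowed. In the telencephalon of male 322, 15 of the 16 genes were under 10% of their diencephalon mean. Over all 180 genes the lower quartile in that library was 16.1%. The exception was ENSGACG00000003716, at 35.6% there and at 24.7% in the median telencephalon library. The other genes of the group stood at no more than 5.62% in the median telencephalon library, so a level under 10% was usual for them.

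ENSGACG00000018030 showed how the group ran across males. Its diencephalon values were 174, 236, 334 and 503 CPM in courtship males, 224, 353, 398, 456 and 546 CPM in challenge males and 209, 242, 332 and 417 CPM in tradeoff males, against 219, 311, 393 and 412 CPM in control males. Each treatment thus held a male at 224 CPM or below, and the 4 ranges overlapped. Values above 417 CPM were found in courtship and challenge males only. The mean deviation of the 16 genes from their own mean L was -0.70 to 0.57 in courtship males, -0.47 to 0.69 in challenge males and -0.68 to 0.33 in tradeoff males, against -0.41 to 0.25 in control males. Male 304 was the lowest of the controls in the group.

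**Figure D4:**
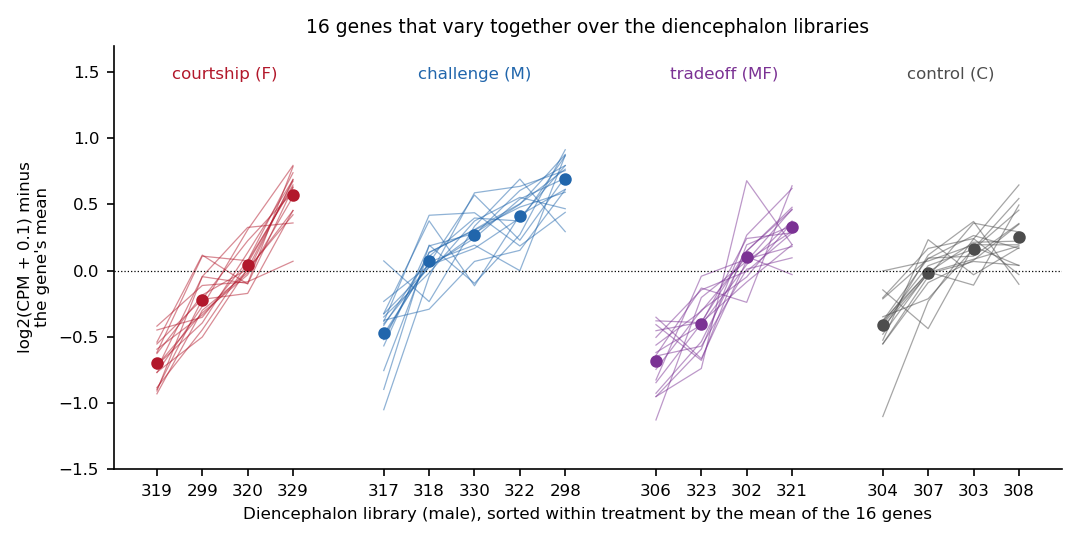
Deviation of L, log2(CPM + 0.1), from each gene's diencephalon mean for the 16 genes of the ENSGACG00000018030 group (thin lines) and their mean (points) in the 17 diencephalon libraries, sorted by that mean within each treatment. The lines run together, and the means span -0.70 to 0.57 (courtship), -0.47 to 0.69 (challenge), -0.68 to 0.33 (tradeoff) and -0.41 to 0.25 (control), so the treatments overlap.

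Smaller groups formed around other genes. With ENSGACG00000006252 as the anchor, chosen after its values were seen, 9 genes with it included reached 0.8, against 0.262% of the 11841 genes. Its companions fell to r = 0.466 to 0.722 without males 304 and 322, so that this group rested on those animals. With ENSGACG00000017217, the gene with the most reads, 3 genes with it included reached 0.8 (ENSGACG00000017775 at 0.853 and ENSGACG00000020330 at 0.801), against 0.0591%. These became 0.843 and 0.765 when males 304 and 322 were left out. The median pairwise r over all 180 genes was 0.141 in the diencephalon, against 0.0456 over the 11841 genes, and 0.653 in the telencephalon, against 0.0280. The telencephalon value was 0.259 without males 304 and 322, against 0.0261.

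Because each male gave both regions, the level of a gene in the 2 libraries of a male could be set side by side. With treatment means subtracted, Pearson's r between the regions over the 17 males had a median of -0.15 over the 180 genes, against 0.436 over the 11841 eligible genes with at least 10 CPM in the diencephalon. Without male 304 (n = 16) it was 0.00955, against 0.487, and without males 304 and 322 (n = 15) it was 0.294, against 0.528. The sign of the median thus rested on those males. The median of the 180 genes lay below that of the other set in all 3 settings. The telencephalon counts of the 180 genes are lower than those of the other set, and their part in the lower r was not tested.

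The genes with the highest r between regions, chosen by that value and so given without a test, were ENSGACG00000018314 (r = 0.929, rho 0.935), ENSGACG00000020330 (0.764, rho 0.750) and ENSGACG00000006403 (0.728, rho 0.600) over the 16 males without male 304. Over all 17 males r was 0.717, 0.596 and 0.650 in the same order. Without the 2 males farthest from the median in the diencephalon, r over the 16 became 0.900, 0.624 and 0.482, so that the last rested in part on those males.

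ENSGACG00000018314 had 6.97, 11.4 and 15.3 CPM as its lowest, median and highest value in the diencephalon, against 0.882, 2.72 and 6.09 CPM in the telencephalon. Male 317 was lowest in both regions, at 6.97 and 0.882 CPM. Males 303, 318 and 330 were also low in both, at 7.95 to 8.80 CPM in the diencephalon and 0.971 to 1.18 CPM in the telencephalon, and male 299 was high in both, at 14.4 and 5.78 CPM. ENSGACG00000020330 and ENSGACG00000006403 were each lowest in both regions of male 318, at 21.0 and 1.57 CPM and at 13.3 and 1.17 CPM.

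ENSGACG00000008195, the last gene inside the spread threshold, differed from the other genes in which males held it. In the diencephalon it had 3.63, 24.2 and 59.97 CPM as lowest, median and highest value, and males 322 (3.63 CPM) and 323 (5.26 CPM) were far below the next, at 15.7 CPM. In the telencephalon it had 43.6 CPM in male 321, 39.6 CPM in male 298, 15.23 CPM in male 304 and 15.15 CPM in male 308, with 5.74 CPM as the highest of the remaining 13. The telencephalon exceeded the diencephalon in males 298, 321 and 323, at 39.6, 43.6 and 5.74 CPM, against 21.5, 27.9 and 5.26 CPM.

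The treatments were then compared for every gene with edgeR's quasi-likelihood test, with Benjamini-Hochberg adjustment over all genes tested. The comparisons ask whether expression 60 minutes after the final trial differed with what the male had met in it. All 180 genes were tested in the diencephalon, 164 of the 180 in the telencephalon, where 16 had too few reads, and all 180 in the tests of whether a response differed between the regions. In none of the 17 comparisons did any of the 180 genes pass an adjusted p of 0.05, against 0% of the 18399, 18277 or 18923 genes tested in the diencephalon, the telencephalon and the region-difference fits. DESeq2 called a few of the 180, which are named below, and limma called 0. The comparisons with the control share the control libraries.

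The rule kept genes with an SD of L under 1 and a mean of at least 10 CPM over the same 17 diencephalon libraries, which hold all treatments. Small fold changes and the absence of very wide intervals in the diencephalon were thus in part set by the choice. The median log2 fold change of the 180 genes was 0.09 for courtship against control, 0.03 for challenge against control and 0.06 for tradeoff against control, against 0.00 over all genes tested in each. The fold changes ran from -0.51 to 0.37, from -0.38 to 0.39 and from -0.56 to 0.51. The 95% interval of the fold change lay within 2-fold in either direction for 176, 176 and 174 of the 180 genes, beside 88.4%, 89.2% and 88.0% of all genes tested. All genes tested were not held to these limits, so nothing is read from the higher share. The median SE of the 180 genes was larger, at 0.145, 0.138 and 0.145, against 0.126, 0.119 and 0.126 over all genes tested. The intervals cover the spread between males as edgeR estimated it. Without male 304, whose diencephalon had the lowest sum, the medians were 0.01, -0.02 and -0.01.

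At an unadjusted p under 0.05 the diencephalon gave 9 genes for courtship against control, 2 for challenge against control and 5 for tradeoff against control. These shares of 180 stand beside 2.34%, 2.61% and 3.14% of all genes tested. Tradeoff against courtship gave 8 genes beside 4.51%, tradeoff against challenge gave 5 beside 3.53%, and courtship against challenge gave 12 beside 3.93%. Any treatment difference gave 5 beside 2.72%. Leaving out a male in turn changed these counts together with the share over all genes. For courtship against control it gave 5 (without male 329, beside 2.17%) to 14 genes (308, beside 3.31%). For challenge against control it gave 2 to 8 genes (303, beside 4.81%), and for tradeoff against control 3 (307, beside 2.35%) to 16 genes (303, beside 5.30%). Tradeoff against courtship gave 4 (323, beside 3.72%) to 11 genes (304, beside 4.48%), and tradeoff against challenge 4 (302, beside 3.03%) to 11 genes (318, beside 4.73%, or 330). Courtship against challenge gave 7 (299, beside 3.18%) to 28 genes (298, beside 6.60%), and any difference 4 to 12 genes (304, beside 2.89%).

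The genes with the lowest p for any treatment difference in the diencephalon did not pass the adjustment. ENSGACG00000006867 had 63.7, 61.5, 69.6 and 61.2 CPM in courtship males, 62.7, 59.3, 65.1, 73.2 and 58.8 CPM in challenge males and 60.1, 58.8, 60.7 and 60.2 CPM in tradeoff males, against 51.5, 55.2, 55.1 and 58.0 CPM in control males. Every male of the other treatments lay above the highest control, though narrowly (58.8 against 58.0 CPM). The gene was chosen by its p, and the share of all genes that separate in this way is not given, so nothing is read from the separation. The log2 fold change was 0.22 for challenge against control (SE 0.07, unadjusted p = 0.00429, edgeR adjusted p = 0.9999) and likewise 0.22 for courtship (SE 0.07, unadjusted p = 0.00707, edgeR adjusted p = 0.9999). For any difference, the adjusted p ran from 0.914 to 1 over the alternatives.

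ENSGACG00000017052 had 9.25, 8.41, 9.42 and 9.14 CPM in courtship males, 9.82, 8.81, 14.04, 11.6 and 12.8 CPM in challenge males and 15.8, 11.98, 12.17 and 11.2 CPM in tradeoff males, against 12.9, 10.1, 9.82 and 11.5 CPM in control males. The courtship values lay below all tradeoff and all control values, again in a gene chosen by its p and without a share over all genes beside it. Tradeoff against courtship had a log2 fold change of 0.48 (SE 0.13, unadjusted p = 0.00213, edgeR adjusted p = 0.9995). ENSGACG00000014673 had 33.7, 41.0, 45.6 and 43.9 CPM in tradeoff males, against 27.6, 26.8, 24.997, 35.2 and 35.8 CPM in challenge males, and these overlapped. The log2 fold change was 0.44 (SE 0.14, unadjusted p = 0.00634, edgeR adjusted p = 0.9998).

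In the telencephalon the fold changes followed male 304. Among the 164 genes that passed the filter, the median log2 fold change was -0.79 for courtship against control, -0.31 for challenge against control and -0.91 for tradeoff against control. Without male 304 these medians were 0.16, 0.50 and 0.02. Without males 304 and 322 they were 0.16, 0.07 and 0.02. The sums show the same. The 180 genes summed to 1880.4 ± 499.9 CPM in courtship males (SD, n = 4), 2118 ± 1500.1 CPM in challenge males (n = 5) and 1510.5 ± 186 CPM in tradeoff males (n = 4), against 2794 ± 2612 CPM in control males (n = 4). Without those males the challenge sum was 1560.3 ± 961 CPM (n = 4) and the control sum 1503 ± 481 CPM (n = 3).

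Unadjusted p-values under 0.05 in the telencephalon came to 23 genes for courtship against control, all lower in courtship males, beside 2.51% of all genes tested. Challenge against control gave 23, of which 22 were lower in challenge males, beside 2.66%, and tradeoff against control gave 34, all lower in tradeoff males, beside 2.75%. Without male 304 the counts were 2, 20 and 2, beside 2.13%, 2.86% and 1.92%, and 17 of the 20 for challenge were then higher in challenge males. Without male 322 they were 36, 42 and 48, all lower in the treated males, beside 2.64%, 3.37% and 3.09%. Without males 304 and 322 they were 3, 7 and 3, beside 2.196%, 2.36% and 2.04%. Over all males left out in turn the counts reached 51 for courtship (without male 303, beside 2.32%), 42 for challenge (322) and 69 for tradeoff (303, beside 4.94%). With all males, limma gave 2, 4 and 4 genes, beside 2.29%, 2.88% and 2.68%. The counts against the control thus depended on which males entered and on the test.

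Between the other treatments the telencephalon gave 2 genes for tradeoff against courtship beside 3.81%, 7 for tradeoff against challenge beside 3.44% and 5 for courtship against challenge beside 3.42%. Without male 304 these were 3, 28 and 13, beside 3.92%, 3.78% and 3.65%. Without males 304 and 322 they were 6, 6 and 7, beside 3.94%, 3.37% and 3.23%. Any treatment difference gave 24 beside 2.49%, then 19 and 5 in the same settings, beside 2.56% and 2.26%. With all males in the fit, the 95% interval of the fold change lay within 2-fold in 9 to 25 of the 164 genes over the 6 comparisons in pairs. For all genes tested the share was 79.5% to 81.4%. In most of the 164 genes a change of 2-fold or more could thus not be excluded in the telencephalon with all males in the fit. The intervals were not computed without males 304 and 322, so how far their width rests on those males was not tested.

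**Figure D5:**
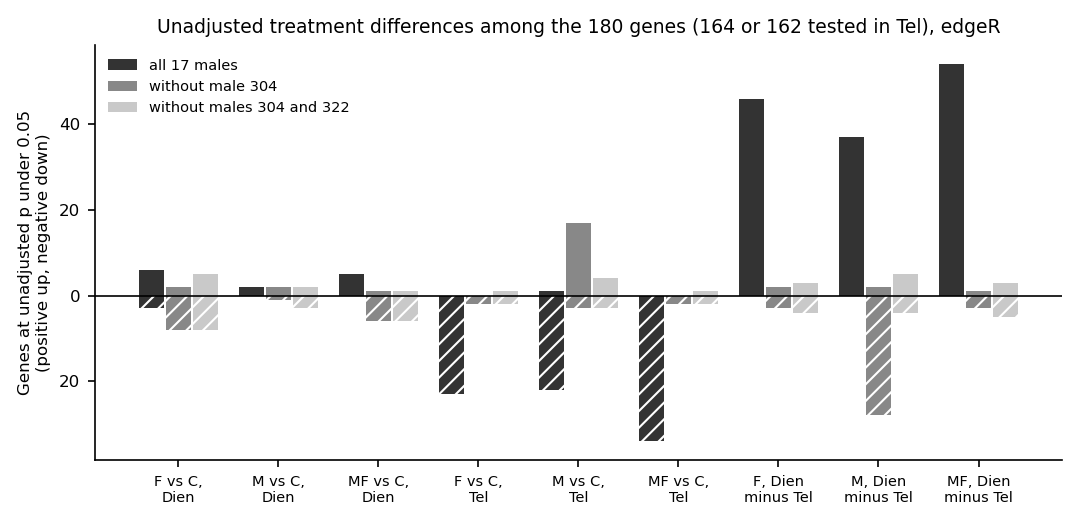
Number of the 180 genes at an unadjusted p under 0.05 in edgeR, with genes of positive log2 value drawn upward and of negative value downward and hatched, for each treatment against the control in the diencephalon and telencephalon and for the difference of the response, diencephalon minus telencephalon. Shades give all 17 males, the set without male 304 and the set without males 304 and 322. The bars for the telencephalon and for the difference shrink or turn round when the males are left out, for example 54, 4 and 8 genes for the tradeoff response. The shares of all genes tested beside these are 2.04%, 1.08% and 1.14%.

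The difference of the response between the regions, taken as diencephalon minus telencephalon, gave 46 genes at an unadjusted p under 0.05 for courtship beside 2.24% of all genes tested, 37 for challenge beside 1.73% and 54 for tradeoff beside 2.04%. All of these were positive. Without male 304 they were 5, 30 and 4, beside 1.51%, 1.62% and 1.08%, and 28 of the 30 for challenge were negative. Without male 322 they were 68, 76 and 78, all positive, beside 2.53%, 2.51% and 2.36%, and without male 303 the courtship and tradeoff counts reached 69 and 87, beside 2.75% and 3.06%. When males 304 and 322 were both left out the counts were 7, 9 and 8, or 3.89%, 5.00% and 4.44% of the 180 genes beside 1.62%, 1.28% and 1.14% of all. With the male as a block, which pairs the libraries of an animal, they were 3, 7 and 7, or 1.67%, 3.89% and 3.89% of the 180 beside 3.68%, 2.83% and 3.20% of all, and 0 genes passed the adjustment. With limma they were 7, 9 and 2, beside 1.63%, 1.25% and 1.42%. Genes with too few telencephalon reads to be tested there entered these fits through their diencephalon reads, which the rule made high. Their response differences rest on few telencephalon reads, so nothing about the 180 genes is read from the counts of response differences.

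ENSGACG00000007902 had the lowest unadjusted p of the 180 genes in these tests and in the telencephalon. In the telencephalon it had 0.444, 0.327, 0.715 and 0.384 CPM in courtship males, 0.160, 0.283, 0.469, 1.06 and 0.145 CPM in challenge males and 0.514, 0.717, 0.708 and 0.515 CPM in tradeoff males, against 0.702, 11.8, 0.357 and 7.44 CPM in control males. The high values were those of males 304 (11.8 CPM) and 308 (7.44 CPM), while the other controls lay among the treated males. In the diencephalon it had 14.8 to 28.7 CPM with no separation by treatment. Challenge against control in the telencephalon had a log2 fold change of -3.55 (SE 0.80, unadjusted p = 0.000376, edgeR adjusted p = 0.9998).

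For ENSGACG00000007902 the difference of the challenge response between regions was 3.63 (SE 0.78, unadjusted p = 7.61e-05, edgeR adjusted p = 0.792). The adjusted p of that difference ran from 0.0196 to 1 over its alternatives, and it passed 0.05 in DESeq2 and without male 307. Leaving out males 304 and 322 gave 3.30 (edgeR, unadjusted p = 0.000476), with male 308 then the only control with a high telencephalon value. In that setting 0 of the 180 genes passed the edgeR adjusted threshold of 0.05 for the challenge response, beside 0% of all genes tested.

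ENSGACG00000018030 and ENSGACG00000013566 had the next lowest p for any treatment difference in the telencephalon (unadjusted p = 0.000566 and 0.000517, edgeR adjusted p = 1 for both). In the telencephalon ENSGACG00000018030 had 0.546 to 1.71 CPM in courtship males, 0.678 to 1.09 CPM in challenge males and 0.554 to 3.403 CPM in tradeoff males, against 0.702, 159, 1.07 and 4.43 CPM in control males. Challenge against control was -5.55 on the log2 scale, and -1.25 without males 304 and 322 (unadjusted p = 0.0588). For ENSGACG00000013566 these values were -5.61 and -1.44 (unadjusted p = 0.0463). Without males 304 and 322, 0 of the 162 genes tested passed the edgeR adjusted threshold for challenge against control in the telencephalon, beside 0% of all genes tested.

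With DESeq2 the adjusted threshold was passed by 0 of the 180 genes in every diencephalon comparison. The share of all genes tested was 0.0217% for tradeoff against courtship, 0.00544% for tradeoff against challenge, 0.0109% for courtship against challenge, 0.0326% for any difference and 0% for each treatment against the control. In the telencephalon it was passed by 0 of the 164 genes for courtship against control, beside 0.00547%, for tradeoff against courtship, beside 0.0219%, and for courtship against challenge, beside 0.0109%. It was also passed by 0 for tradeoff against control and for tradeoff against challenge, beside 0% in each. The courtship response between regions gave 0 of the 180 genes as well, beside 0.00528%. At an unadjusted p under 0.05, DESeq2 gave 2 to 17 of the 180 genes over the 7 diencephalon comparisons, beside 2.45% to 4.80% of all genes tested, and 4 to 32 of the 164 over the 7 telencephalon comparisons, beside 2.90% to 4.38%. It gave 35, 35 and 47 of the 180 for the courtship, challenge and tradeoff responses between regions, beside 2.43%, 1.75% and 2.09%. All of these response differences were positive, as in edgeR with all males, and the DESeq2 fits also held all males. Genes with too few telencephalon reads entered them through their diencephalon reads, which the rule made high. Nothing about the 180 genes is therefore read from these unadjusted response counts either.

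In the remaining comparisons a few of the 180 genes passed the adjusted threshold of DESeq2. In the telencephalon this was ENSGACG00000007902 for challenge against control (DESeq2 adjusted p = 0.0354, beside 0.00547% of all genes tested) and the same gene for any difference (DESeq2 adjusted p = 0.00174, beside 0.0109%). Over all alternatives the adjusted p of these differences ran from 0.0354 to 1 and from 0.00174 to 1. The challenge response between regions gave 7, beside 0.0581%, and the tradeoff response 1, beside 0.0106%. As in edgeR, genes with too few telencephalon reads entered these fits through their diencephalon reads, which the rule made high. Nothing about the 180 genes is therefore read from these counts of response differences. The gene of the tradeoff response, ENSGACG00000008991, had 8.68 CPM in the telencephalon of male 304, 8.04 CPM in that of male 322, while the remaining 15 did not exceed 0.718 CPM. The 7 were ENSGACG00000007902, ENSGACG00000018030, ENSGACG00000013566, ENSGACG00000018596, ENSGACG00000015226, ENSGACG00000006999 and ENSGACG00000014956. In all but the first, the telencephalon of male 304 alone was far above the other controls. ENSGACG00000014956 had 5.28 CPM there and 0 CPM in the other 3 control and all 5 challenge telencephalon libraries, and ENSGACG00000006999 had 11.01 CPM there and 0 in the other 3 controls.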

How the data were processed

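RNA was measured in the diencephalon and telencephalon of 17 males, 34 libraries in all, prepared with a strand-marking kit for polyadenylated RNA per the labels' protocols. The authors deposited raw read counts per gene for each library. The reads were aligned with STAR and counted with HTSeq, per the submitters' processing notes, while for versions, genome build, annotation and strand setting nothing is stated in the labels or files. The 5 summary rows at the end of each table stayed out of all totals. Counts of overlapping or near-identical genes are uncertain, and whether antisense reads were told apart is not given.

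CPM and L, log2(CPM + 0.1), were computed with Python 3.11.15. Treatments were tested with edgeR 4.0.16 (R 4.3.3): TMM scaling, its default low-count filter, a robust quasi-likelihood fit and Benjamini-Hochberg adjustment over all genes tested, per region over its 17 libraries and, for response differences, over all 34. The SE of a log2 fold change was its absolute value over the root of its F statistic. DESeq2 1.42.0, limma 3.58.1, DESeq2 size factors, no filter, fits of the compared groups alone and leaving out each male were alternatives, and the scripts were tested on simulated data. Libraries with the same number come from the same male, per the labels, so the male served as a block in the response differences of a further alternative. Each male is a separate animal.

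The genes and the lists were chosen with earlier results of these data known. Gene lists by symbol were prepared but could not be used, since the identifiers carry no symbols. Named genes are the 5 of highest diencephalon mean, the 3 each of largest difference, smallest spread, highest telencephalon mean and highest r between regions, those of lowest p for any treatment difference (3 per region) and for a response difference, and those next to the thresholds. Any other gene is said to be chosen after its values were seen. Exceptions are the companions of an anchor gene and the genes called by DESeq2, which follow from those counts. ENSGACG00000009256 and ENSGACG00000010184 were also named after their values were seen.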

Additional observations from a re-analysis of the deposited data

Results flagged for a closer look

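Each of 176 measures, taken within 1 treatment and region (4 or 5 libraries), was screened for a single extreme library by its gap to the nearest other library relative to the range. This singled out 22. Chance gives about 1 in 20 for measures picked without regard to such values, and many of these genes were named for their extremes.

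Of the 22, 8 were in the telencephalon of control male 304. Its summed level of the 180 genes was 6667 CPM, against 1139.7 to 2048 CPM in the other controls, and its median percentage of the diencephalon mean was 53.8%, against 9.38% to 14.04%. ENSGACG00000017695 had 275.9 CPM there, against 24.5 to 43.8 CPM, and ENSGACG00000018030 had 158.6 CPM, against 0.702 to 4.43 CPM. ENSGACG00000018017 had 81.91 CPM, against 0 to 0.921 CPM, and ENSGACG00000020044 had 56.2 CPM, against 0 to 0.570 CPM. ENSGACG00000006867 had 32.05 CPM, against 10.5 to 13.0 CPM, and ENSGACG00000013566 had 81.55 CPM, against 0.390 to 2.51 CPM.

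In the other telencephalon libraries 9 were found. ENSGACG00000018017 and ENSGACG00000020044 had 18.1 and 26.54 CPM in courtship male 299, against at most 0.218 and 0.279 CPM in the other courtship males. They had 13.16 and 10.49 CPM in challenge male 298, against at most 0.286 and 1.102 CPM, and 4.635 and 1.902 CPM in tradeoff male 323, against at most 0.157 and 0.0396 CPM. ENSGACG00000008195 had 39.61 CPM in challenge male 298, against 0.837 to 1.43 CPM, and 43.58 CPM in tradeoff male 321, against 1.38 to 5.74 CPM. ENSGACG00000014314 had 6.366 CPM in challenge male 322, against 2.78 to 3.68 CPM.

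The remaining 5 were in the diencephalon. ENSGACG00000015883 had 62.43 CPM in courtship male 299, against 68.3 to 69.0 CPM. ENSGACG00000011929 had 22.7 CPM in challenge male 322, against 26.3 to 27.5 CPM, and 24.26 CPM in tradeoff male 323, against 25.56 to 25.59 CPM. ENSGACG00000006403 had 13.32 CPM in challenge male 318, against 24.5 to 27.4 CPM. ENSGACG00000017217 had 2047 CPM in tradeoff male 302, against 1542 to 1617 CPM.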

How the results depend on the processing

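The number of genes that met the rule was 172 to 197 with 1 male left out (highest without male 304) and 213 without males 304 and 322, a setting chosen after seeing the data. With TMM factors in the CPM it was 150, since TMM moved every diencephalon minus telencephalon difference by -0.15 on the log2 scale, and with log2(CPM + 1) it was 149. Over the telencephalon libraries the median percentage of the diencephalon mean was 10.97% to 11.46% with 1 male left out. The median r between regions was -0.195 to 0.00955 with 1 male left out, the highest without male 304, and 0.294 without males 304 and 322. With edgeR, 0 of the 180 genes passed the adjusted threshold in any comparison under any scaling or filter tried, or without males 304 and 322. With the male as a replicate block it was also 0 genes. That fit gave 3, 7 and 7 at an unadjusted p under 0.05, beside 3.68%, 2.83% and 3.20% of all genes tested. With 1 male left out it was 0 genes as well, with 1 exception: the challenge response between regions gave 0 to 1, ENSGACG00000007902 passing without male 307. DESeq2 gave 1 gene for challenge against control and 1 for any difference in the telencephalon, beside 0.00547% and 0.0109% of all genes tested. For the challenge and tradeoff responses between regions it gave 7 and 1, beside 0.0581% and 0.0106%. As above, nothing about the 180 genes is read from these response counts. The cause of the calls was not tested. Telencephalon counts limit what can be seen there, where 16 of the 180 genes had too few reads to be tested.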
